A study of Mus musculus with 12 samples.

Results

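The effect of sepsis on splenic megakaryocytes (MKs) was read from 6 of the study's 12 RNA-Seq libraries, 3 made from the spleen after sepsis and 3 from the spleen after saline, which were chosen by the tissue and treatment in their labels. All mice were Pf4-TdTomato mice on the C57BL/6 strain, in which a Cre recombinase under the Pf4 promoter switches on the red protein tdTomato in cells that have used this promoter and in their descendants. The study used mice of both sexes, 8 to 12 weeks old, and cells were taken 5 days after an injection of cecal slurry (CS), the sepsis group, or of saline. From each of 3 independent replicates a group, 300 cells that carried CD45, CD41, CD42b and tdTomato and lacked CD138 and the lineage proteins of T cells, B cells, NK cells and myeloid cells were sorted and turned into 1 library with the SMART-Seq HT kit. The study's figure legends give n = 3 mice for these data. The p values of edgeR rest on the spread between libraries of a group, estimated over all 4 groups, those of bone marrow (BM) included. The 6 BM libraries, made in the same way from the same kind of mice after saline or sepsis, entered the fit and were used to ask whether the effect of sepsis differed between the tissues.

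MKs are large polyploid cells that release platelets, and their genes for adhesion receptors, granule cargo and cytoskeleton are driven by transcription factors such as GATA1 and NF-E2. In the mouse, the spleen holds MKs beside its lymphocytes, macrophages and red cell precursors, and it adds to blood cell production under stress. Basophils, which share GATA factors with the MK lineage, carry the high-affinity IgE receptor and release histamine, proteases and the cytokine IL-4.

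The 6 splenic libraries held between 10010153 and 27386184 counts each, and levels are given as CPM, the counts of a gene scaled to a common library total with TMM factors, in order of replicates 1, 2 and 3. The lineage check was mixed, because Pf4 was present in every splenic library while other MK genes were low and lymphocyte genes were present, such as those of antigen receptors. Pf4, which encodes platelet factor 4, read 485, 602 and 2439 CPM after saline and 615, 476 and 789.6 CPM after sepsis. Itga2b, which encodes CD41, read 22.98, 28.5 and 93.4 CPM after saline and 6.43, 19.2 and 320.5 CPM after sepsis, and Gp1ba, which encodes the sorted CD42b, was between 0.112 and 24.0 CPM in the 6 libraries. None of these 3 genes was called in edgeR (adjusted p = 0.477, 0.629 and 0.540), and the log2 fold change of Itga2b turned from 1.256 to -1.90 without replicate 3 after sepsis and that of Pf4 from -0.91 to 0.24 without replicate 3 after saline. Between 24.0% and 30.1% of the counts after saline and between 13.03% and 27.6% after sepsis fell on segment genes of immunoglobulins and T cell receptors (exact permutation test, p = 0.2, where 0.1 is the smallest p that 3 against 3 can give). Pearson correlations of log2 CPM across genes were between 0.522 and 0.736 for replicates of a group and between 0.479 and 0.702 across the groups, so that these ranges overlapped, and genes are not independent replicates.

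After sepsis, libraries of cells sorted as splenic MKs held less RNA of 20 genes, among them genes of basophils, chemokines and immune receptor adaptors, and more RNA of 12 genes, most of which were close to undetected after saline. In edgeR's quasi-likelihood test, with 1 mean for each of the 4 groups and Benjamini-Hochberg adjustment over 20263 genes, 32 genes were called at an adjusted p under 0.05, which is 0.158% of the genes tested. Of these, 20 were lower after sepsis (0.0987%) and 12 were higher (0.0592%), and with RLE in place of TMM scaling the split was 22 lower and 8 higher. The libraries of the groups did not overlap for any of the 32 genes, which was true of 9.46% of all genes tested (4.51% lower and 4.95% higher after sepsis). At an unadjusted p under 0.05 there were 1586 lower (7.83%) and 1063 higher genes (5.25%). The number of calls differed between fits. A fit of the 6 splenic libraries alone called 0 genes in edgeR (612 of 13406 at an unadjusted p under 0.05), limma-voom with quality weights called 0 (1492 at an unadjusted p under 0.05) and DESeq2 called 986, and the direction of all 32 genes was the same in each of these fits.

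**Figure D1:**
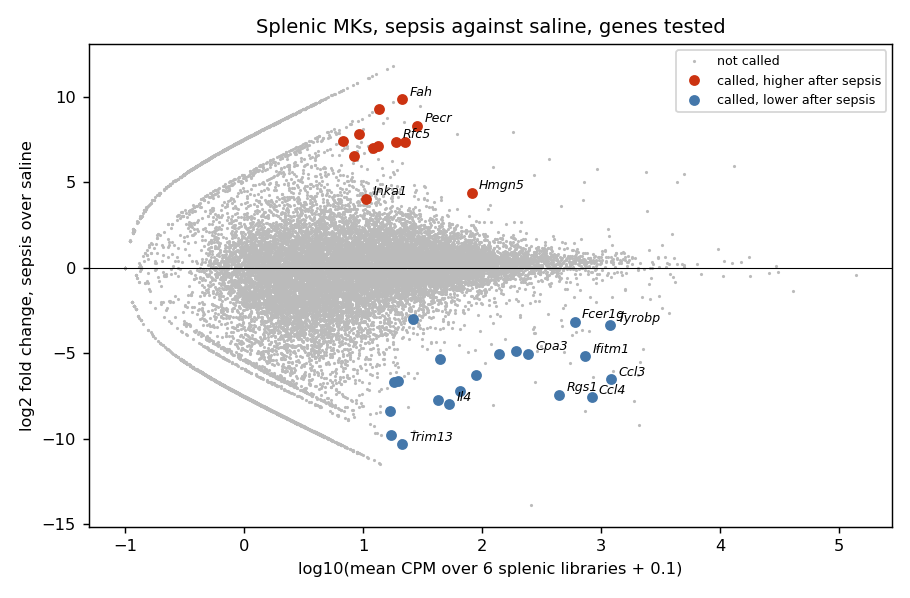
Each point is a gene tested, with log10 of its mean CPM over the 6 splenic libraries plus 0.1 on the x axis and its log2 fold change of sepsis over saline on the y axis. The 32 called genes lie at log2 fold changes of -2.99 or lower and 4.03 or higher, and many uncalled genes of low level lie as far from 0.

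**Figure D2:**
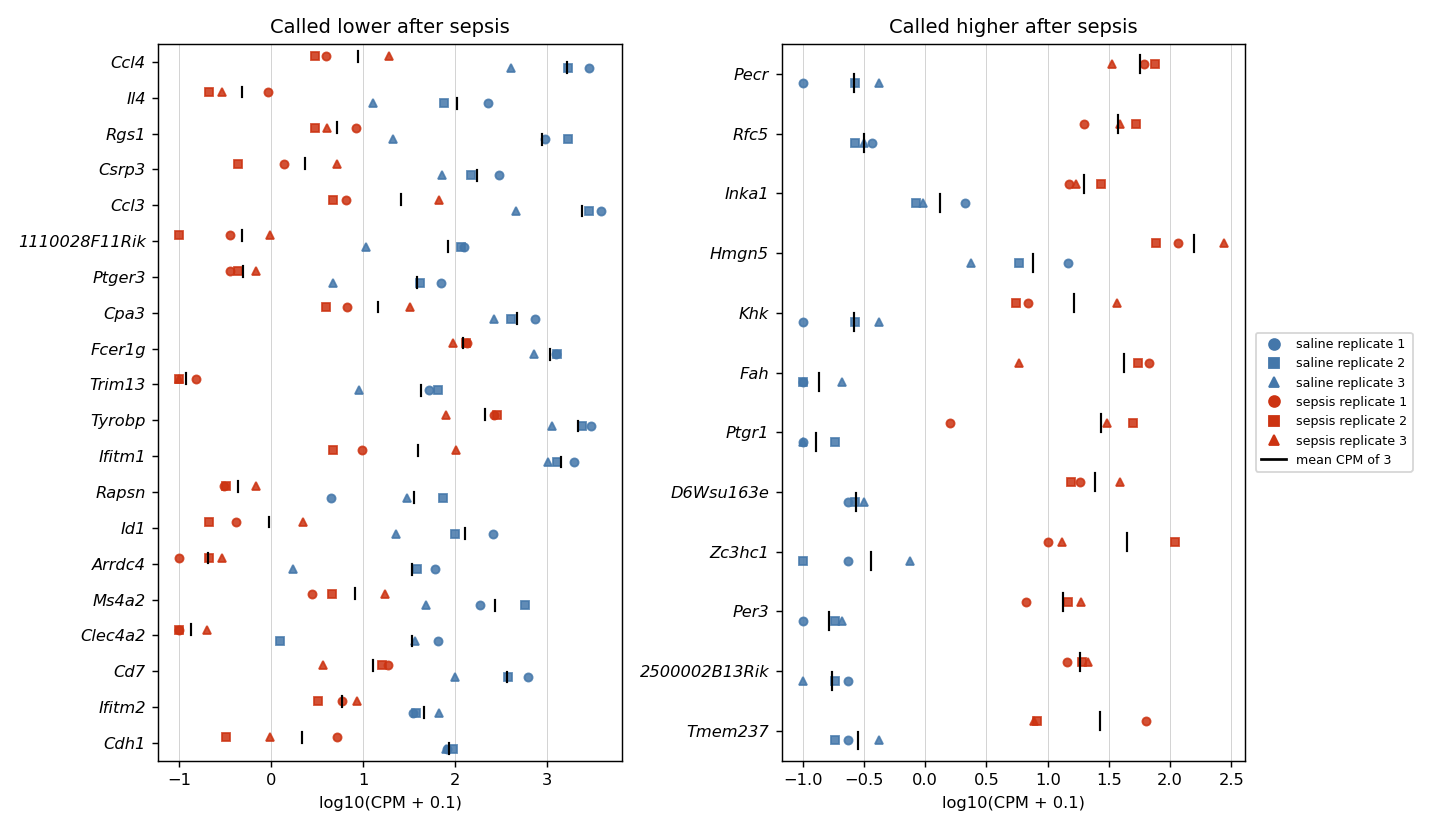
Each symbol is the level of a called gene in 1 splenic library, as log10 of CPM plus 0.1, in blue after saline and red after sepsis, with a black bar at the log10 of the mean of 3 plus 0.1. The 2 colors do not overlap in any row, and most genes of the right panel lie near the lower end of the axis after saline.

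Of 13 genes of basophils and mast cells, 4 were called lower after sepsis in the splenic libraries, against 0.0987% of all genes tested. These were Il4, Cpa3, Ifitm1 and Ms4a2. The list was chosen with earlier results of these data known, so its counts are not independent evidence of its direction. All 13 genes of the list had a log2 fold change below 0, against 52.6% of all genes tested. In that direction 12 had an unadjusted p under 0.05 (7.83% of all genes tested) and 10 had libraries that did not overlap (4.51%). The median over the list was -3.62, against -0.08 over all genes tested. The summed level of the list was 7520, 5130 and 4340 CPM after saline and 109.5, 57.0 and 930.5 CPM after sepsis, and replicate 3 was the highest of the septic libraries for 11 of the 13 genes. Without that library, 12 of the 13 genes were called and the median was -6.32. The promoter windows of the 4 called genes of the list are printed to show the DNA next to their RefSeq starts. Matches to the GATA letters AGATAA or TGATAA on either strand are in capitals, since GATA2 is on the list. They are RefSeq windows on GRCm38.p6, each 300 bases long and written 5′ to 3′, at chr11:53618616-53618915 for Il4, chr3:20242132-20242431 for Cpa3 and chr19:11623670-11623969 for Ms4a2 on the minus strand and chr7:140967826-140968125 for Ifitm1 on the plus strand. The window of Ifitm1 held no match. Its RefSeq start lay 855 bases from the GENCODE start of the gene, against 4, 0 and 0 bases for Il4, Cpa3 and Ms4a2.
Il4: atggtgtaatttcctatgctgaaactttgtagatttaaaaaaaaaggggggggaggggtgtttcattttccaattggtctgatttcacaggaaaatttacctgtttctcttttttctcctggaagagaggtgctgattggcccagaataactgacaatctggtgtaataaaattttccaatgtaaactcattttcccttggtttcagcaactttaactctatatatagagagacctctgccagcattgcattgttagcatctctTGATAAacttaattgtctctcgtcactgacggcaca
Cpa3: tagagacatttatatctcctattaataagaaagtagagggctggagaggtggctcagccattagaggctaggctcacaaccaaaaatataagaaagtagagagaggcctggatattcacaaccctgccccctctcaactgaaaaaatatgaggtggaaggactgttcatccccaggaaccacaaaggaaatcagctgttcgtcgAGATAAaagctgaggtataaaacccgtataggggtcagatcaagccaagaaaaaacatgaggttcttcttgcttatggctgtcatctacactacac
Ms4a2: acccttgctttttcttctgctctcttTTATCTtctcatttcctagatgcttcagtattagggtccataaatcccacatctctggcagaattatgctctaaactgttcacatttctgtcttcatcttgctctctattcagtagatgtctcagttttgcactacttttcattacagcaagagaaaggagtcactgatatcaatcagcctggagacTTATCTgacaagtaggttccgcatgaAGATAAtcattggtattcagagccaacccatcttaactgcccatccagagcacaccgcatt
Ifitm1: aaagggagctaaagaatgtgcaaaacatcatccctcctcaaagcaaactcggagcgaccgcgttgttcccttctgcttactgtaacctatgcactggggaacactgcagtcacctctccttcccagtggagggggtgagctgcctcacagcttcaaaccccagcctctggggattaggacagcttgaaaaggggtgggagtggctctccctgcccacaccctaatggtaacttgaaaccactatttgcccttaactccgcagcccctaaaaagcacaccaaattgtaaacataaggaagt
Overlapping matches were counted separately. Windows were found for 24 of the 32 called genes, and 3 of 12 windows of lower genes and 1 of 12 windows of higher genes held a match, against 18.6% of 32851 RefSeq windows of this length. A match is a string of letters and not a known site.

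Il4 (ENSMUSG00000000869, chromosome 11, 53602982 to 53618669), a cytokine of type 2 immunity, read 227, 75.6 and 12.6 CPM after saline and 0.822, 0.112 and 0.194 CPM after sepsis. Each septic library was below each saline one, with a log2 fold change of -7.99 (1.22 SE, edgeR adjusted p = 0.0127). Cpa3 (ENSMUSG00000001865, chromosome 3, 20215620 to 20242181), a carboxypeptidase of mast cell and basophil granules, read 742, 408 and 268 CPM after saline and 6.58, 3.81 and 32.6 CPM after sepsis. The fitted change of Cpa3 on the log2 scale was -5.04 (0.89 SE, edgeR adjusted p = 0.0307). Ms4a2 (ENSMUSG00000024680, chromosome 19, 11615523 to 11623719), the beta chain of the high-affinity IgE receptor, read 187, 578 and 47.6 CPM after saline and 2.67, 4.48 and 16.98 CPM after sepsis. The difference on the log2 scale of -5.07 (0.97 SE, edgeR adjusted p = 0.0400) was no longer called without replicate 2 after saline, the highest of the 6, when it was -3.87 (adjusted p = 0.0531). Ifitm1, a membrane protein that limits virus entry, read 1981, 1284 and 1024 CPM after saline and 9.66, 4.59 and 103 CPM after sepsis, with a log2 fold change of -5.19 (0.95 SE, edgeR adjusted p = 0.0307). Its near neighbor Ifitm2 read 35.0, 37.5 and 66.7 CPM after saline and 5.81, 3.14 and 8.54 CPM after sepsis (log2 fold change -2.99 with SE 0.59, edgeR adjusted p = 0.0450). The family is similar in sequence and 40.9% of the exon length of Ifitm2 overlaps other genes, so its counts are uncertain, and its call was lost without replicate 3 after saline (adjusted p = 0.0545) or without replicate 1 or 2 after sepsis (0.103 and 0.184).

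The remaining 9 genes of the basophil list were not called. Mcpt8, a protease that marks mouse basophils, read 1457, 858 and 1527 CPM after saline and 38.0, 12.7 and 262 CPM after sepsis (log2 fold change -3.62 with SE 0.87, edgeR adjusted p = 0.138). Fcer1a, the alpha chain of the IgE receptor, read 1037, 487 and 269 CPM after saline and 5.35, 2.02 and 67.2 CPM after sepsis (log2 fold change -4.59, adjusted p = 0.0964). For both, the septic libraries were below the saline ones, and without septic replicate 3 both were called (adjusted p = 0.000104 and 3.43e-05). Cd200r3, an activating receptor of basophils and mast cells, had an adjusted p of 0.0638 and was called with any 1 library left out (adjusted p between 3.43e-05 and 0.0485). Hdc, the enzyme that makes histamine, had an adjusted p of 0.111 and was called without saline replicate 2 (0.0485) or septic replicate 3 (0.0235). Only Cyp11a1 had an unadjusted p above 0.05 (0.124), and its septic replicate 3 read 67.1 CPM against 0.771 and 0.560 CPM in the other septic libraries, and the gene was called without that replicate (adjusted p = 0.00239). No saline or septic splenic library was at 0 for Mcpt8, Cpa3, Fcer1a or Ms4a2. In such bulk libraries, fewer cells of a type and less RNA per cell cannot be told apart.

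**Figure D3:**
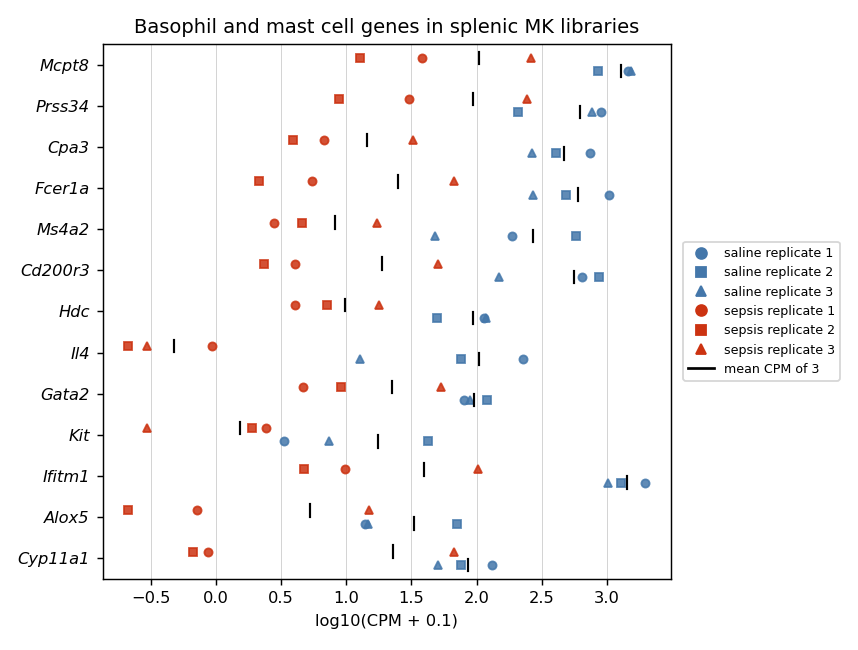
Each symbol is the level of a basophil or mast cell gene in 1 splenic library, as log10 of CPM plus 0.1, in blue after saline and red after sepsis, with a black bar at the log10 of the mean of 3 plus 0.1. Septic replicate 3 (red triangle) lies nearest to the saline libraries in most rows, and the colors overlap for Prss34, Alox5 and Cyp11a1.

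Ccl4 and Ccl3, chemokines that attract monocytes, NK cells and T cells, were lower after sepsis. Ccl4 (ENSMUSG00000018930, chromosome 11, 83662584 to 83664683) read 2881, 1699 and 405 CPM after saline and 3.80, 2.91 and 19.1 CPM after sepsis, and Ccl3 (ENSMUSG00000000982, chromosome 11, 83647844 to 83649355) read 3838, 2891 and 467 CPM after saline and 6.48, 4.59 and 66.2 CPM after sepsis. Saline replicate 3 was the lowest of its group and septic replicate 3 the highest of its own for both genes, and the groups did not overlap. The log2 fold changes were -7.59 (1.014 SE, edgeR adjusted p = 0.00667) and -6.54 (1.04 SE, edgeR adjusted p = 0.0133). In the list of inflammatory cytokines and NF-kB targets these were the 2 called genes of 17, against 0.0987% of all genes tested called lower. Of the 17, 16 had a log2 fold change below 0 (52.6% of all genes tested) and 6 an unadjusted p under 0.05 in that direction (7.83%). The median was -2.52 (-1.36 without saline replicate 2, -4.04 with the replicate number as a block). Il6 read 335, 266 and 20.3 CPM after saline and 0.565, 12.7 and 0.0970 CPM after sepsis, which was not called (log2 fold change -5.55 with SE 1.36, edgeR adjusted p = 0.164), although it was called without saline replicate 3 (0.0151) or septic replicate 2 (0.00255). Ptgs2, the inducible cyclooxygenase, read 50.8, 20.3 and 1.61 CPM after saline and had 0 counts in the 3 septic libraries, at least 285-fold lower with 3 counts over the group as the floor, and was not called (adjusted p = 0.226; 0.0479 without saline replicate 3). Nfkbia, an inhibitor of NF-kB that its own pathway induces, read 367 ± 167 CPM after saline and 168 ± 66.2 CPM after sepsis (SD, n = 3; edgeR adjusted p = 0.382), and Nfkb1 had a log2 fold change of 0.56. The summed level of the list was between 1378 and 7879 CPM after saline and between 244 and 644 CPM after sepsis. Its libraries had the same highest septic replicate as the summed basophil list, and the part of basophil RNA in the chemokine levels was not tested.

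Fcer1g and Tyrobp, adaptors of activating immune receptors, were both lower after sepsis. Fcer1g (ENSMUSG00000058715, chromosome 1, 171229572 to 171234365), the signaling chain shared by Fc receptors and by the platelet collagen receptor, read 1242, 1279 and 726 CPM after saline and 135, 133 and 94.6 CPM after sepsis. On the log2 scale Fcer1g differed by -3.16 (0.57 SE, edgeR adjusted p = 0.0307), between -3.38 and -2.95 in all alternatives. Tyrobp (ENSMUSG00000030579, chromosome 7, 30413760 to 30417585), the related adaptor DAP12 of NK and myeloid cells, read 2998, 2434 and 1129 CPM after saline and 268, 289 and 79.8 CPM after sepsis (log2 fold change -3.36 with SE 0.61, edgeR adjusted p = 0.0307). Both genes are used by basophils, NK cells and macrophages alike, and the lists of all 3 cell types had medians below 0. The part of these cells in the levels of Fcer1g and Tyrobp was not tested. Cd7, a surface protein of T and NK cells, read 626, 381 and 100.3 CPM after saline and 18.7, 15.9 and 3.59 CPM after sepsis (log2 fold change -4.86 with SE 0.94, edgeR adjusted p = 0.0432), with 10.8% of its exon length shared with other genes.

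Rgs1, which shortens signaling of chemokine receptors, read 958, 1682 and 21.1 CPM after saline and 8.33, 2.91 and 3.98 CPM after sepsis (log2 fold change -7.44 with SE 1.16, edgeR adjusted p = 0.0127). Ptger3, the EP3 receptor for prostaglandin E2, read 69.7, 41.9 and 4.61 CPM after saline and 0.257, 0.336 and 0.582 CPM after sepsis (log2 fold change -6.61 with SE 1.13, edgeR adjusted p = 0.0249). Id1, which blocks helix-loop-helix transcription factors, read 262, 101 and 22.4 CPM after saline and 0.308, 0.112 and 2.14 CPM after sepsis (log2 fold change -7.23 with SE 1.36, edgeR adjusted p = 0.0377). For all 3 genes saline replicate 3 lay closest to the septic libraries. Csrp3, a LIM protein best known from muscle, read 298, 151 and 72.7 CPM after saline and 1.29, 0.336 and 5.14 CPM after sepsis (log2 fold change -6.27 with SE 0.98, edgeR adjusted p = 0.0127). Cdh1, which encodes E-cadherin, had the most even saline values of the lower genes, 82.3, 94.8 and 80.1 CPM, against 5.04, 0.224 and 0.873 CPM after sepsis. On the log2 scale Cdh1 differed by -5.35 (1.06 SE, edgeR adjusted p = 0.0479), and the call was lost without replicate 2 or 3 after sepsis (adjusted p = 0.0789 and 0.0671).

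Another 3 lower genes were almost undetected after sepsis, so that their fitted folds depend on few counts. Trim13, an E3 ubiquitin ligase of the endoplasmic reticulum, read 52.2, 65.3 and 8.90 CPM after saline, or 1261 counts in all, against 1 count over the 3 septic libraries, a pooled ratio of 1691 with a 95% counting interval of 303 to 66854 (edgeR adjusted p = 0.0307). Arrdc4, an arrestin-related protein, had 929 counts after saline and 3 after sepsis, a ratio of 415 (142 to 2018; adjusted p = 0.0400). Clec4a2, a lectin receptor of myeloid and dendritic cells, read 64.6, 1.16 and 36.3 CPM after saline with 1 count after sepsis, a ratio of 1113 (199 to 44021; adjusted p = 0.0432), and its call was lost without saline replicate 1 (adjusted p = 0.0660) or septic replicate 1 or 2 (0.0595 and 0.0615). These intervals cover counting error only, because PCR copies of a molecule are counted as separate reads. Rapsn, known for clustering acetylcholine receptors, and the intronic transcript 1110028F11Rik completed the lower genes, with log2 fold changes of -6.71 and -7.76 (adjusted p = 0.0307 and 0.0133 in edgeR).

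Of the 12 genes that were higher after sepsis, 10 had a saline mean below 1 CPM, and none of the 12 belonged to a gene list. For all 12, each saline splenic library was below each BM library, saline or septic. Over the BM libraries, Pecr was between 19.02 and 46.2 CPM and Rfc5 between 19.5 and 55.6 CPM. Khk was between 31.4 and 96.4 CPM there, and Inka1 between 87.7 and 180.5 CPM. Fah was also low in BM after saline, at 0.258, 0.497 and 0.215 CPM, and Ptgr1 read 1.09 CPM in BM saline replicate 2. Pecr (ENSMUSG00000026189, chromosome 1, 72259167 to 72284314), a peroxisomal enzyme of fatty acid elongation, read 0, 0.165 and 0.322 CPM after saline and 61.6, 75.1 and 33.7 CPM after sepsis. On the log2 scale Pecr differed by 8.32 (1.15 SE, edgeR adjusted p = 0.00667), with 5 counts in all after saline and 2215 after sepsis. Rfc5 (ENSMUSG00000029363, chromosome 5, 117378103 to 117389047), a subunit of the clamp loader of DNA replication, read 0.270, 0.165 and 0.215 CPM after saline and 19.8, 53.0 and 38.7 CPM after sepsis (log2 fold change 7.38 with SE 1.06, edgeR adjusted p = 0.00838). All septic libraries were far above all saline libraries for both genes, of which 11.5% and 10.7% of the exon length overlaps other genes. Hmgn5 (chromosome X, 109004534 to 109013404), which binds nucleosomes and loosens chromatin, and Inka1, an inhibitor of a p21-activated kinase, were the higher genes with saline means above 1 CPM. Hmgn5 read 14.5, 5.69 and 2.25 CPM after saline and 116, 77.2 and 275 CPM after sepsis (log2 fold change 4.39 with SE 0.79, edgeR adjusted p = 0.0307), and without saline replicate 2 its adjusted p was 0.0537. Inka1 read 2.03, 0.743 and 0.858 CPM after saline and 14.9, 27.1 and 16.9 CPM after sepsis (log2 fold change 4.03 with SE 0.67, edgeR adjusted p = 0.0200).

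Khk, ketohexokinase of fructose metabolism, read 0, 0.165 and 0.322 CPM after saline and 6.79, 5.38 and 37.0 CPM after sepsis (log2 fold change 6.52 with SE 1.18, edgeR adjusted p = 0.0307). Fah, the last enzyme of tyrosine breakdown, had 1 count over the saline libraries and 66.5, 54.3 and 5.73 CPM after sepsis, a pooled ratio of 1370 (95% counting interval 246 to 54157; adjusted p = 0.0307). Ptgr1, a reductase that inactivates leukotrienes and prostaglandins, had 1 count after saline and 1.49, 49.2 and 30.7 CPM after sepsis, a ratio of 585 (105 to 23118; adjusted p = 0.0377). Per3, a gene of the circadian clock, had 2 counts after saline and 6.53, 14.6 and 18.4 CPM after sepsis, a ratio of 167 (45.9 to 1380; adjusted p = 0.0477). The transcript 2500002B13Rik had 2 counts after saline and 14.4, 18.8 and 21.2 CPM after sepsis, a ratio of 248 (68.5 to 2054; adjusted p = 0.0479). D6Wsu163e, Zc3hc1, which takes part in mitotic entry, and Tmem237, a protein of the cilium, had log2 fold changes of 7.05, 7.39 and 7.14 (adjusted p = 0.0400, 0.0450 and 0.0483 in edgeR). For the last 2, 1 septic library was far above the others, with 110.4 CPM of Zc3hc1 in replicate 2 against 9.87 and 12.9 CPM, and 63.4 CPM of Tmem237 in replicate 1 against 8.07 and 7.67 CPM. Without those libraries the log2 fold changes were 5.42 and 5.398 (adjusted p = 0.153 and 0.144), and the groups did not overlap. Other calls of higher genes depended on single libraries, since Fah, D6Wsu163e, Per3, Zc3hc1, Tmem237 and 2500002B13Rik each also lost theirs without saline replicate 2, with adjusted p between 0.0537 and 0.0926. Without saline replicate 1 the calls of D6Wsu163e, Per3, Tmem237 and 2500002B13Rik were lost as well (0.0514 to 0.0801), without saline replicate 3 that of 2500002B13Rik (0.0531), and without septic replicate 1 or 2 that of Fah (0.110 and 0.0602).

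Of the transcription factors that set the MK program, 9 of 12 had a log2 fold change below 0 and 6 had an unadjusted p under 0.05 in that direction, against 7.83% of all genes tested, while none was called. The median was -1.31 and lay between -1.79 and -1.29 in all alternatives. Gata1, Tal1 and Nfe2 also act in red cell precursors, and the erythroid list had a median of -2.34, with 10 of 12 genes below 0, which turned to 2.15 without saline replicate 3. The summed level of the erythroid list was 62.6, 28.8 and 756 CPM after saline and 100.2, 158 and 101 CPM after sepsis, and its part in the transcription factor levels was not tested. Nfe2, which drives platelet release, read 73.7, 51.6 and 40.3 CPM after saline and 11.7, 4.26 and 8.73 CPM after sepsis (log2 fold change -2.74 with SE 0.58, edgeR adjusted p = 0.0777). Tal1 read 10.8, 21.9 and 11.5 CPM after saline and 0.463, 1.57 and 2.81 CPM after sepsis (log2 fold change -3.20 with SE 0.73, edgeR adjusted p = 0.112). Gata1 read 11.4, 5.94 and 18.02 CPM after saline and 3.24, 3.81 and 2.04 CPM after sepsis (log2 fold change -1.95 with SE 0.77, edgeR adjusted p = 0.382). The libraries did not overlap for 4 of the 12 factors in the lower direction, these 3 genes among them, and for 1 in the higher direction. Over all genes tested the shares were 4.51% and 4.95%. Without saline replicate 3 Nfe2 and Tal1 were called (edgeR adjusted p = 0.0367 and 0.0449), as was Tal1 without septic replicate 3 (0.0308). Gata2, which basophils also use, read 79.7, 120.1 and 88.6 CPM after saline and 4.58, 8.96 and 53.7 CPM after sepsis, with septic replicate 3 highest as for the basophil genes, and it was called without that library (adjusted p = 0.00640). Zfpm1, the GATA1 cofactor FOG1, had the other sign, with 1.22, 0.330 and 0.751 CPM after saline and 3.598, 3.14 and 18.2 CPM after sepsis, and was not called (log2 fold change 3.45, adjusted p = 0.278).

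Genes of the platelet itself gave no call, and their list medians lay between -0.33 and 0.36. The median log2 fold change was -0.10 over 15 adhesion receptors, 0.10 over 14 granule cargo genes, -0.33 over 15 agonist receptors and signaling genes and 0.36 over 15 cytoskeleton genes, with 0 called in any of them by edgeR. The signs of the adhesion, cargo and cytoskeleton medians turned in 6, 3 and 1 of 15 alternatives, among them RLE scaling for the cargo list. The median of the agonist receptors kept its sign but was -1.38 without septic replicate 1, -0.995 without septic replicate 3, -0.93 without saline replicate 2, -0.61 without septic replicate 2, -0.08 without saline replicate 3 and -0.01 without saline replicate 1. At an unadjusted p under 0.05, 5 genes of the 4 lists were higher and 6 lower, against 5.25% and 7.83% of all genes tested. P2ry1, an ADP receptor, read 10.5, 165 and 5.69 CPM after saline and 4.58, 1.12 and 1.75 CPM after sepsis (log2 fold change -4.58 with SE 1.05, edgeR adjusted p = 0.114), and without saline replicate 2 its log2 fold change was -1.68, while it was called without saline replicate 1 or 3 or septic replicate 1 (adjusted p = 0.0123, 0.00643 and 0.0276). F2r, a thrombin receptor, had -2.13 (0.65 SE, edgeR adjusted p = 0.307) and Rgs18, a brake on platelet activation, -1.81 (0.57 SE, edgeR adjusted p = 0.325). Itgb3, the beta chain paired with CD41, read 11.9, 17.9 and 55.7 CPM after saline and 50.7, 64.8 and 427 CPM after sepsis (log2 fold change 2.66 with SE 0.79, edgeR adjusted p = 0.294), and Treml1, a receptor of platelet granules, read 2.57, 0.908 and 9.66 CPM after saline and 26.8, 10.5 and 41.8 CPM after sepsis (log2 fold change 2.59 with SE 0.80, edgeR adjusted p = 0.317). Treml1 was called without saline replicate 3 (adjusted p = 0.0367), and septic replicate 3 was the highest library for Itga2b, Itgb3, Treml1 and Gp1ba.

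Receptors for growth signals of MKs had a median of -1.05, and none was called. At an unadjusted p under 0.05, 5 of 12 were lower, against 7.83% of all genes tested, and none was higher. Il3ra, the alpha chain of the IL-3 receptor, read 2.57, 4.21 and 0 CPM after saline and 4.16, 0 and 41.7 CPM after sepsis (log2 fold change 2.75 with SE 2.05, edgeR adjusted p = 0.623), a value that rests on septic replicate 3 and was -0.04 without it. Csf2rb, the beta chain that IL-3 shares with other cytokines, read 326, 212 and 108 CPM after saline and 140.0, 102 and 417 CPM after sepsis (log2 fold change 0.03, SE 0.70). Csf2rb2, the beta chain used by IL-3 alone, read 65.1, 46.6 and 124 CPM after saline and 0.360, 0.224 and 11.2 CPM after sepsis (log2 fold change -4.33 with SE 1.18, edgeR adjusted p = 0.230), basophils also express it, and it was called without septic replicate 3 (adjusted p = 0.00110). Ifngr1, a chain of the interferon gamma receptor, read 186, 133 and 113 CPM after saline and 33.1, 49.3 and 19.3 CPM after sepsis (log2 fold change -2.08 with SE 0.66, edgeR adjusted p = 0.329).

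Cd40lg, the gene of CD40 ligand, had 134, 0 and 0 counts after saline and 0, 0 and 49 counts after sepsis, so 1 library of each group held all its reads, and it did not pass the filter on low counts. Selp, which encodes P-selectin, read 7.16, 16.3 and 0.322 CPM after saline and 0.0514, 2.80 and 0.291 CPM after sepsis (log2 fold change -2.95 with SE 1.29, edgeR adjusted p = 0.382). Among the 14 tested genes of CD40 ligand and platelet immune mediators, 1 was called, Fcer1g, against 0.158% of all genes tested. Ccl5, a chemokine stored in platelet granules and made by T and NK cells, read 2250, 924 and 13.6 CPM after saline and 155, 32.2 and 17.3 CPM after sepsis, with overlapping groups (adjusted p = 0.382). Cd36, the thrombospondin receptor, was higher in each septic library, at 279, 255 and 85.3 CPM against 7.57, 44.8 and 42.9 CPM, and was not called (log2 fold change 2.698 with SE 0.95, edgeR adjusted p = 0.382).

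Genes of cell division had the highest median of all the lists, and genes of protein folding were also mostly above 0. Of 22 cell cycle genes, 20 had a log2 fold change above 0, 6 had an unadjusted p under 0.05 in that direction against 5.25% of all genes tested, and none was called. Their median was 1.54 (2.54 without saline replicate 3, 0.92 without septic replicate 3), and their summed level was 320.0, 515 and 1034 CPM after saline and 1646, 1111 and 1543 CPM after sepsis, so that the lowest septic library was just above the highest saline one. Rrm2, which makes deoxynucleotides, read 9.33, 25.3 and 24.7 CPM after saline and 69.3, 55.5 and 168 CPM after sepsis (log2 fold change 2.30 with SE 0.77, edgeR adjusted p = 0.365). Mki67, which marks dividing cells, read 7.43, 52.6 and 59.6 CPM after saline and 87.0, 71.4 and 232 CPM after sepsis (log2 fold change 1.70 with SE 0.71, edgeR adjusted p = 0.382), and Mcm6, a subunit of the replicative helicase, read 19.9, 1.40 and 19.7 CPM after saline and 51.7, 52.6 and 80.7 CPM after sepsis (log2 fold change 2.17 with SE 0.72, edgeR adjusted p = 0.354). Of 16 genes of folding and secretion in the endoplasmic reticulum (ER), 14 were above 0. At an unadjusted p under 0.05, 5 were higher, against 5.25% of all genes tested. Their list had a median of 0.83 (1.34 without saline replicate 3, 0.43 without septic replicate 3). Hsp90b1, the chaperone GRP94, read 332, 254 and 605 CPM after saline and 1195, 1033 and 3499 CPM after sepsis (log2 fold change 2.27 with SE 0.54, edgeR adjusted p = 0.138), and it was called without saline replicate 3 or septic replicate 1 (adjusted p = 0.0434 and 0.0467). Pdia3, a disulfide isomerase, read 58.9, 107 and 238 CPM after saline and 327, 430.3 and 526 CPM after sepsis (log2 fold change 1.66 with SE 0.56, edgeR adjusted p = 0.366), and for both genes saline replicate 3 was the highest of its group.

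**Figure D4:**
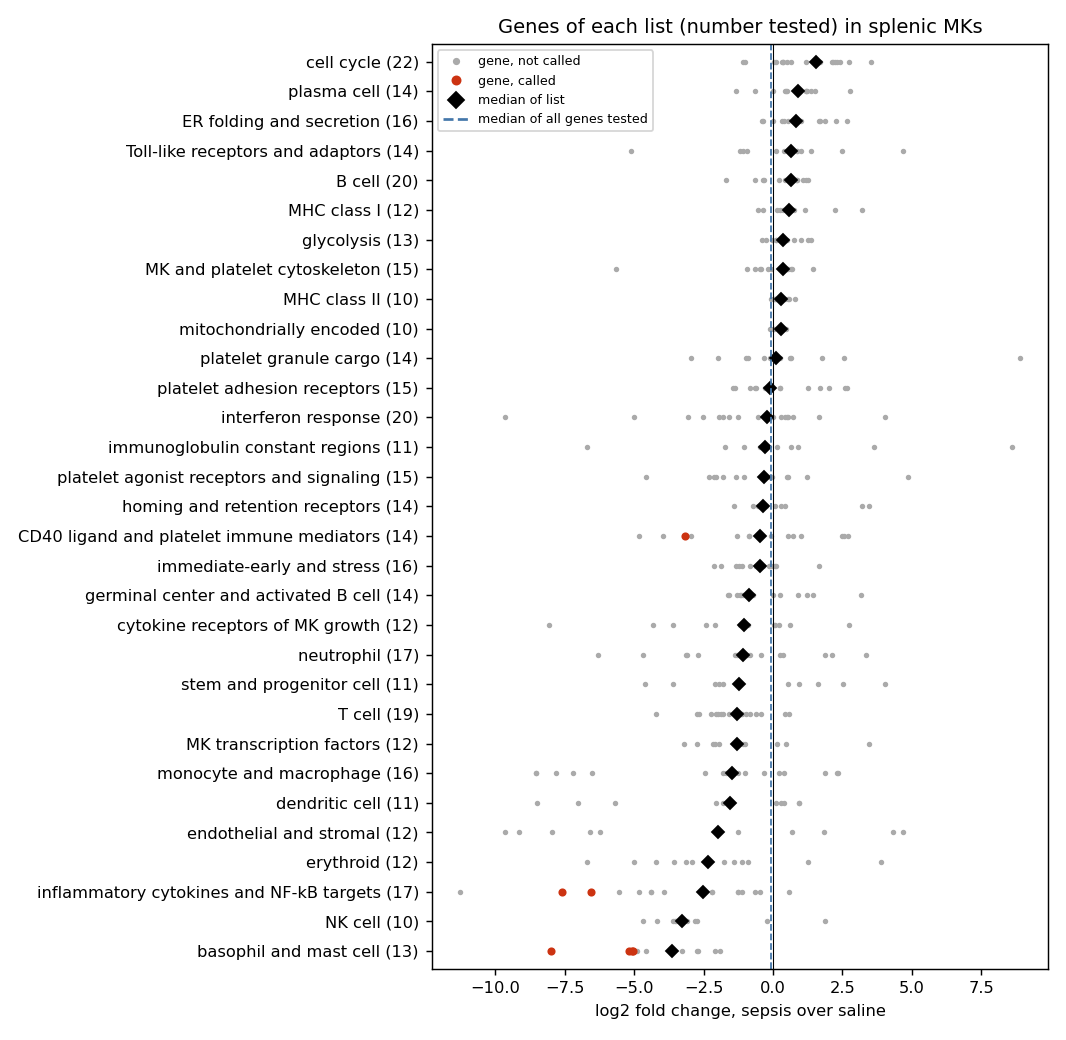
Each row is a gene list with the number of its genes tested, gray points are the log2 fold changes of genes that were not called, red points those of called genes, black diamonds the medians, and the dashed line the median over all genes tested. The basophil, NK cell and inflammatory lists lie lowest, with medians of -3.62, -3.29 and -2.52, and the cell cycle list highest, with 1.54.

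The levels of marker genes of other leukocytes also varied between the splenic libraries. NK cell genes had a median of -3.29 over 10 genes tested, with a summed level of 2765, 1684 and 341 CPM after saline and 285, 161 and 123.3 CPM after sepsis. Nkg7, a protein of cytotoxic granules, read 1357, 821 and 282 CPM after saline and 130.4, 135 and 25.4 CPM after sepsis (log2 fold change -3.08 with SE 0.66, edgeR adjusted p = 0.0810; called without saline replicate 3 at 0.00709, septic replicate 1 at 0.0366 or septic replicate 3 at 0.0300), and Klrb1c, the gene of a protein that was gated out, had 54, 145 and 6 counts after saline and 0, 2 and 0 after sepsis. Of 16 monocyte and macrophage genes 11 were below 0 and 7 had an unadjusted p under 0.05 in that direction, against 7.83% of all genes tested. Their summed level was 2083, 1648 and 2955 CPM after saline and 965, 996 and 436 CPM after sepsis. Lyz2, lysozyme, read 910.3, 1029 and 1776 CPM after saline and 556, 523 and 71.8 CPM after sepsis (log2 fold change -1.69 with SE 0.64, edgeR adjusted p = 0.382), and C1qb had 2 counts in all after sepsis against 0.946, 19.97 and 46.3 CPM after saline. T cell genes had a median of -1.29 (-0.35 without saline replicate 1), with 17 of 19 below 0 and none at an unadjusted p under 0.05. B cell genes had the other sign, with 16 of 20 above 0 and a median of 0.64, also with none at an unadjusted p under 0.05. Ms4a1, which encodes CD20, read 781, 786 and 1738 CPM after saline and 2759, 2585 and 704 CPM after sepsis. Jchain, the joining chain of secreted antibodies, read 80009, 50864 and 45640 CPM after saline and 33994, 29609 and 6552 CPM after sepsis (log2 fold change -1.33 with SE 0.54, edgeR adjusted p = 0.382), although 12 of the 14 plasma cell genes were above 0. Neutrophil genes followed single libraries, with summed levels of 22401, 879 and 399 CPM after saline and 10897, 201 and 359 CPM after sepsis. S100a8 and S100a9 read 9679 and 6465 CPM in saline replicate 1 and 5140 and 2830 CPM in septic replicate 1 and at most 161.5 CPM in the other splenic libraries, and without saline replicate 1 their log2 fold changes turned from -0.94 and -1.22 to 3.65 and 3.66, while without septic replicate 1 they were called lower (adjusted p = 0.00798 for both). The part of such cells in the called genes was not tested.

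Sepsis in the BM gave 0 called genes in edgeR (717 of 20263 at an unadjusted p under 0.05, 3.54%; 206 called by DESeq2), and the effect of sepsis was not called as different between spleen and BM for any gene (smallest adjusted p 0.0764; 1556 genes at an unadjusted p under 0.05, 7.68%; 495 called by DESeq2). The effects in the 2 tissues share no libraries. Of the 20 genes called lower in spleen, 19 had a log2 fold change below 0 in BM as well. Their median in BM was -0.91, against -0.08 over all genes tested there. Of the 12 called higher, 6 were above 0 in BM, with a median of -0.0005. Ccl4 and Ccl3 had log2 fold changes of -3.09 and -2.30 in BM, while Il4 had -1.08 and Pecr 0.01. Pecr and Rfc5 had the smallest adjusted p for the difference, 0.0764 each, with differences of 8.31 and 7.74 on the log2 scale. The summed basophil list was between 5890 and 30997 CPM in BM after saline and between 3198 and 7633 CPM after sepsis, so the septic splenic libraries, at 57.0 to 930.5 CPM, were the lowest of the 4 groups. The medians of the cell cycle and ER lists were 0.09 and 0.11 in BM, and that of the MK transcription factors was -0.02. Those of the NK cell, erythroid, basophil and inflammatory lists were below 0 in BM as in spleen, at -1.898, -1.56, -1.401 and -0.89. Some other lists were also below 0 in both tissues, among them the interferon and T cell lists, at -1.04 and -0.26 in BM. Others with a splenic median below 0 had one above 0 in BM. Among the latter were the neutrophil, monocyte and macrophage, and dendritic cell lists, at 4.504, 1.44 and 0.54.

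**Figure D5:**
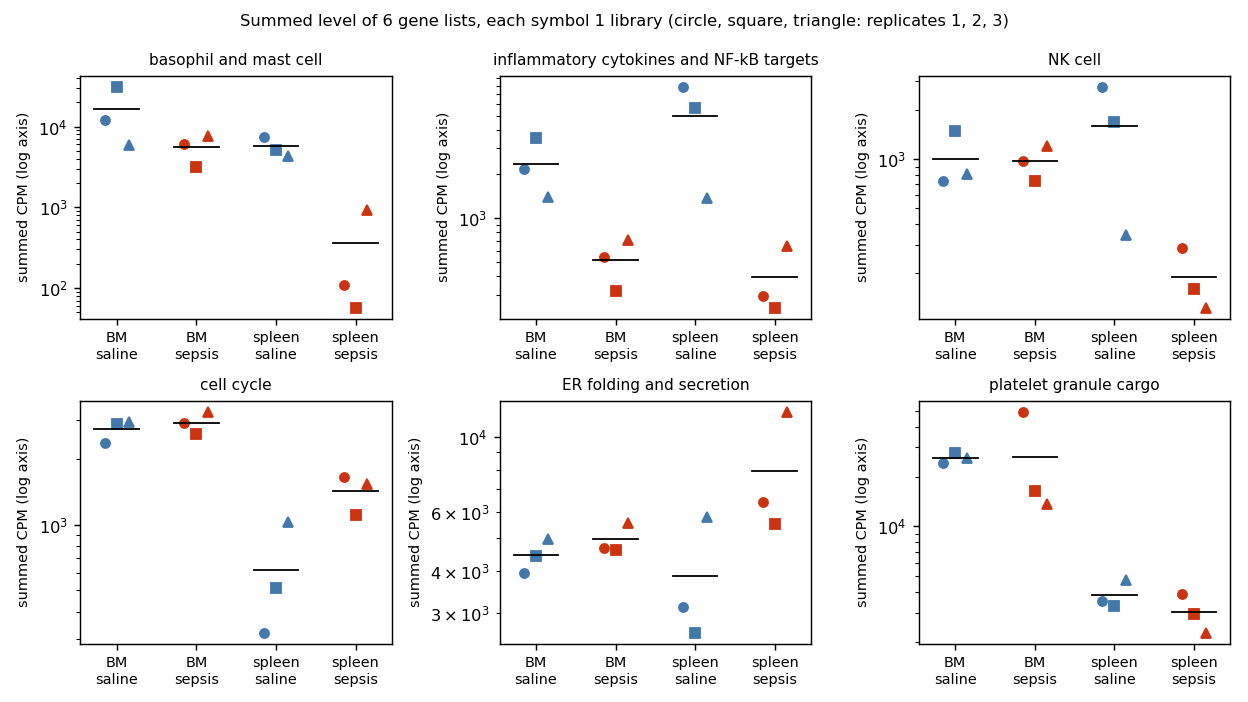
Each symbol is the summed CPM of a gene list in 1 of the 12 libraries on a log axis, blue after saline and red after sepsis, with a bar at the mean of 3. The splenic septic libraries lie lowest for the basophil list, at 57.0 to 930.5 CPM, and the cell cycle list is between 320.0 and 1646 CPM in spleen and between 2375 and 3285 CPM in BM.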

How the data were processed

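The authors sequenced RNA of 300 sorted cells per library and deposited a table of raw read counts for 55536 genes in 12 libraries, without normalization. Per the submitters' processing notes the tools were STAR 2.7.2b, R 3.6.1 and DESeq2 1.26, with the genome build GRCm38. No source used here gives the annotation or the counting and strand options, so reads of overlapping genes cannot be told apart. Positions and exon overlaps were taken from GENCODE M21 on GRCm38, which holds all 55536 identifiers, and 55450 had a symbol.

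Counts were analyzed with edgeR 4.0.16 in R 4.3.3: filterByExpr with a minimum count of 10, TMM factors, 1 mean for each of 4 groups (8 residual degrees of freedom, common dispersion 2.05) and the quasi-likelihood F test. The SE is the size of the log2 fold change divided by the square root of F. Total counts were between 7756762 and 27386184 per library, and 3 counts were the floor for a group at 0. Tables and figures were made with pandas 2.3.3 and matplotlib 3.10.9. Alternatives were RLE factors, library size alone, no filter, a filter of 10 counts in 3 splenic libraries, DESeq2 1.42.0, limma-voom (limma 3.58.1) with quality weights, splenic libraries only, leaving out immunoglobulin and T cell receptor genes, a block for the replicate number, and each splenic library left out. The procedure was also run on counts simulated from its own fit with planted changes, which cannot show whether the calls in the real libraries are right.

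Named genes are up to 12 genes per direction with the smallest p among those called, immunoglobulin and T cell receptor segments aside, the genes of sorted and excluded proteins, Cd40lg, Selp, Il3ra and Csf2rb, and, from each gene list, the first 4 genes and those with an unadjusted p under 0.05; the text does not give each of them, some are not reported here, and the other genes it names, called genes beyond the 12 included, were chosen after their values were seen. The gene lists, tests and alternatives were chosen with earlier results of these data known, so no list is independent evidence of its direction. Lists are described by counts and medians, without a set test.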

Additional observations from a re-analysis of the deposited data

How the results depend on the processing

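The number of genes called in spleen depended on the test and on which libraries shared the estimate of the spread. In place of 32, it was 187 without a filter, where 45788 genes were tested, 986 with DESeq2, 0 with limma-voom and 0 with the splenic libraries only, and between 48 and 138 with 1 splenic library left out. It was 30 with RLE, 28 with library size alone, 28 with the stricter filter and 34 without immunoglobulin and T cell receptor genes. The fits with 1 library left out tested between 23354 and 25952 genes, against 20263 in the main fit, and estimated the spread anew. A call gained or lost in them therefore cannot be put down to the values of the left-out library alone. The 32 genes kept their direction in all 15 alternatives, 21 of them stayed called whichever single library was left out, and 22 of 69 uncalled genes whose values were compared were called in at least 1 such fit. RLE scaling moved the median log2 fold change of all genes from -0.08 to -0.26. Genes called as different between the tissues were 0, but 130 without a filter, 495 with DESeq2 and between 3 and 48 with 1 library left out.

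Log2 fold changes that turned were those of uncalled genes. Csf2rb, 0.03 in the report, was -0.12 with RLE, -0.061 with the stricter filter, -0.12 with DESeq2, -0.40 with limma-voom, -0.040 with the splenic libraries only, -0.24 with the replicate block, -0.00517 without immunoglobulin and T cell receptor genes and between -0.79 and 0.52 with 1 library left out. With limma-voom Itga2b was -1.27 and Itgam 1.22. With 1 library left out, Itga2b was between -1.90 and 2.18, Pf4 between -1.25 and 0.24, Il3ra between -0.043 and 3.56, Itgam between -0.85 and 0.38, S100a8 between -7.14 and 3.65 and S100a9 between -8.21 and 3.66. The difference in genes detected, -944 of septic against saline libraries, was between -2470 and 903. The causes were not tested.

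With the replicate number as a block, 33 genes were called, 6 higher and 27 lower, of which 25 were among the 32. The numbers are not known to pair the libraries: deviations of same-numbered libraries from their group means correlated at 0.0447, 0.0138 and 0.0108, and saline replicate 2 correlated more with septic replicate 3 (0.0253).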

Other observations

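Interferon genes had no common direction in the splenic libraries, with 8 of 20 above 0, none called by edgeR (3 at an unadjusted p under 0.05, all lower) and a median of -0.22 that turned to 0.12 without saline replicate 3 and was -0.55 without saline replicate 2 and -0.62 without septic replicate 2. Toll-like receptors and their adaptors had a median of 0.66 over 14 genes tested (0.33 without saline replicate 2, 0.32 without septic replicate 2, 0.40 without septic replicate 3), with 10 above 0 and 0 called (2 at an unadjusted p under 0.05). Among immediate-early genes, whose levels can move with handling of the cells, 13 of 16 were below 0 with a median of -0.48 (-0.23 without saline replicate 2, -0.09 without septic replicate 1, -1.11 without septic replicate 3). Junb read 176, 208 and 175 CPM after saline and 70.1, 54.5 and 99.1 CPM after sepsis (log2 fold change -1.32 with SE 0.59, edgeR adjusted p = 0.382), while Fos had a log2 fold change of 0.07. Dendritic cell genes had a median of -1.55 (-0.82 without saline replicate 2, -0.42 without saline replicate 3, -2.67 without septic replicate 1), and Clec9a, a receptor for dead cells on cross-presenting dendritic cells, read 6.08, 30.1 and 39.4 CPM after saline and 2 counts in all after sepsis, a ratio of 521 (95% counting interval 144 to 4310; adjusted p = 0.138).

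Ccl6, a chemokine of myeloid cells and basophils, and Rgs2, a regulator of G protein signaling, were chosen after their values were seen. Ccl6 read 6136, 4886 and 1503 CPM after saline and 5.86, 5.83 and 263 CPM after sepsis (log2 fold change -5.51 with SE 1.196, edgeR adjusted p = 0.0913). Rgs2 read 892, 426 and 195 CPM after saline and 37.4, 11.4 and 85.5 CPM after sepsis (log2 fold change -3.49 with SE 0.75, edgeR adjusted p = 0.0829). Septic replicate 3 was the highest of its group for both. Ccl6 was called with any 1 library left out (adjusted p between 7.92e-07 and 0.0394), and Rgs2 without saline replicate 2 or 3 or septic replicate 3 (0.0485, 0.0112 and 0.00780).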
